A study of Mus musculus with 3 samples.

Results

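Histone cluster genes encode the linker histone H1 and the core histones H2A, H2B, H3 and H4, and were taken as every gene of the deposited gene lists whose symbol starts with Hist1h, Hist2h, Hist3h or Hist4h. The rule found 67 of 30905 genes: 6 of H1, 18 of H2A, 18 of H2B, 12 of H3 and 13 of H4. Their unique molecular identifiers (UMIs, one per captured transcript) were counted in CD45+ cells, the pan-leukocyte sort, from mouse colon.

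The study compared colon immune cells along a model of colitis-associated colon cancer in C57BL/6 mice, with 1 10x Genomics 3′ library per group and no replicate library. Library C came from healthy colon. The colon behind library T1 held low-grade intraepithelial neoplasia, and that behind T3 high-grade intraepithelial neoplasia. For T1 and T3 the labels give azoxymethane (AOM, a colon carcinogen) at 12 mg/kg into the peritoneum, followed by 3 cycles of 2.5% dextran sodium sulfate (DSS, which injures the colon lining), each with DSS for 7 days and then plain water for 14. The model was started at 6 to 8 weeks of age, and the labels do not give the number of mice per library. Exposure to AOM and DSS, neoplasia and the library itself cannot be told apart, and no p-value was computed.

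After filtering, C, T1 and T3 held 6004, 6143 and 4543 barcodes with a median of 4933, 5272 and 1803 UMIs, and 33247737, 34388762 and 14312176 UMIs in all. The labels call the mice male, but Xist, the RNA of the inactive X chromosome, stood at 1196 to 1361 CPM (UMIs per 1000000 UMIs of the same group) in the libraries, while the Y-linked Ddx3y, Eif2s3y and Uty had 0 UMIs in each. Ptprc, which encodes CD45, stood at 634 to 922 CPM. The libraries shared 15 to 21 barcode sequences per pair. All libraries were used as labelled.

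Replication-dependent histone genes are known to be switched on as a cell copies its DNA, so that new DNA can be packed into nucleosomes, and they lie in clusters of short genes without introns. Their messenger RNAs are known to end in a stem-loop bound by Slbp, in place of a poly(A) tail, and to be degraded when replication stops. A 3′ kit primes on poly(A), so the UMIs counted here come from the transcripts such priming caught, and the share it caught was not measured. Mki67 (the Ki-67 antigen) and Top2a (DNA topoisomerase II alpha) are known marks of dividing cells, and served as the gate that split the barcodes.

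The hairpin was searched in the annotated transcripts (GENCODE M21, GRCm38) as 16 bases, a 6-base stem around a 4-base loop. It was found in 90 of 58797 protein-coding transcripts, which is 0.153%. It stood within 100 bases of the annotated end in 23 members (called terminal), further inside in 23 members whose transcript runs on past it (extended), and in none of the transcript in 21 members, many of whose models stop at the coding end. These classes were chosen after the values had been seen. The stem-loops below are shown because they belong to members described at length in the results, with annotated ends near to and far from the hairpin. Stem bases are in capitals, read 5′ to 3′ on the gene's strand.
Hist1h2ap: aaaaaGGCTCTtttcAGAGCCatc
Hist1h3c: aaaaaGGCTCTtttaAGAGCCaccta
Hist1h2ab: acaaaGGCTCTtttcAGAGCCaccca
Hist1h4i: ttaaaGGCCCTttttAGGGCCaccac
Hist1h1c: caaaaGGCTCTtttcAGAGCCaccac
Hist3h2a: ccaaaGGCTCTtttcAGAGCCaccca
The hairpin of Hist1h2ap (chr13:21833026-21833507, minus strand) ended 3 bases before the annotated transcript end, that of Hist1h2ab (chr13:23751126-23751598, plus strand) 11 bases and that of Hist1h3c (chr13:23744973-23745602, minus strand) 74 bases before it. The annotated transcript ran 330 bases past the hairpin in Hist1h4i (chr13:22040636-22041362, minus strand). It ran 840 bases past it in Hist1h1c (chr13:23738808-23740367, plus strand) and 1643 bases past it in Hist3h2a (chr11:58954685-58956830, plus strand). The annotated distance from hairpin to end thus ran from 3 to 1643 bases among the members shown.

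Promoters, from 250 bases before to 50 after each start, were matched for 61 of the 67 members in RefSeq (GRCm38.p6). The CCAAT box was searched by its letters CCAAT, the TATA box by TATAAA and the octamer by ATTTGCAT, each on both strands. None of the 3 contains another, although their ends may overlap. CCAAT was in 52 of 61 member promoters (85.2%) against 37.9% of all 27025 promoters in the table, TATAAA in 35 (57.4%) against 14.2%, and the octamer in 13 (21.3%) against 1.75%. CCAAT was in every matched promoter of H1, H2A, H2B and H3 but in 3 of 12 of H4. The octamer was in 7 of 17 H2A and 6 of 16 H2B promoters and in none of the other families. A match is a description of these letters, not a binding site. The promoters below stand for an octamer-bearing H2B gene, an H1 gene and an H4 gene, with motif letters of either strand in capitals.
Hist1h2bg: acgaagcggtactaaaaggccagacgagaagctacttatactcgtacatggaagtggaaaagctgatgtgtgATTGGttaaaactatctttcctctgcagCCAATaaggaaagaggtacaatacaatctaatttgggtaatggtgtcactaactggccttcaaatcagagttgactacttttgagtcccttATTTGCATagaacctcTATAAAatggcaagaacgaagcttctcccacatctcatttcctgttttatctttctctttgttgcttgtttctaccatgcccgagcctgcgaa
Hist1h1c: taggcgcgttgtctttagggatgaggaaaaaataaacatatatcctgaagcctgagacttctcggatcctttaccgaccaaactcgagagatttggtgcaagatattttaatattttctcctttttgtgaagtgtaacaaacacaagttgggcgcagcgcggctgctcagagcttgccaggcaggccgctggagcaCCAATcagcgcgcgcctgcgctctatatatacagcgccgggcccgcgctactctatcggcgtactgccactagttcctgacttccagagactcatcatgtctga
Hist1h4i: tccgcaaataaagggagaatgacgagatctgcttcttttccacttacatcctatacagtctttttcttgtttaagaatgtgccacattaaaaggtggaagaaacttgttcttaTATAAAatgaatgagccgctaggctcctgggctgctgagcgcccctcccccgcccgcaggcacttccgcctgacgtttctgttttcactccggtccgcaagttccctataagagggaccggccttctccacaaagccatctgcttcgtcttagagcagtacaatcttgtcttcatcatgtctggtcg
The windows are chr13:23571150-23571449 (plus strand) for Hist1h2bg, chr13:23738557-23738856 (plus strand) for Hist1h1c and chr13:22041313-22041612 (minus strand) for Hist1h4i. Hist1h2bg shares its promoter window with Hist1h2ae, an H2A gene on the opposite strand (chr13:23571171-23571470), so the same octamer lies before both genes.

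Of the members, 54 lie on chromosome 13 between bases 21715763 and 23934851, 10 on chromosome 3, 2 on chromosome 11 and 1 on chromosome 6. Over the kept barcodes they gave 49486 UMIs, 78.9% of them from chromosome 13 and 12.0% from chromosome 3. There were 61 members with at least 20 UMIs, 51 with at least 100 and 19 with at least 1000. Hist1h2bq, Hist1h2ba and Hist1h2aa had 0 UMIs, Hist2h2aa2 and Hist1h1t had 2 UMIs each, and Hist1h2ah had 10. Hist1h2ba, Hist1h2aa and Hist1h1t are known as testis histones. Extended members gave 31440 UMIs, terminal members 11361 and members with no annotated stem-loop 6685. Near-identical copies make some counts uncertain: 31 members shared at least 50% of their 50-base windows with another member, and Hist1h2ap shared 93.1% of them, most with Hist1h2ao. Hist1h2bq shared 100%, most with Hist1h2br, and Hist2h2aa2 100%, most with Hist2h2aa1. Hist1h2ah shared 90.7%, most with Hist1h2ad. The low counts of these last 3 genes therefore do not show that they were silent. Hist1h1e overlaps Hist1h2be, Hist3h2a overlaps Trim17, and Hist2h2bb overlaps Gm42743 on the same strand, so reads of each pair may have been split.

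Summed over all members, C, T1 and T3 held 23450, 17438 and 8598 histone UMIs, or 705, 507 and 601 CPM. At least 1 histone UMI was found in 82.9%, 75.8% and 69.1% of barcodes in C, T1 and T3. Of the 51 members with at least 100 UMIs, 32 had their highest CPM in C, 19 in T3 and 0 in T1, while 33 had their lowest in T1, 16 in T3 and 2 in C. These levels mix lineages and depths that differ between the libraries, so the values below describe the libraries and the comparisons are made within lineage further on. All levels in the family accounts are CPM of the whole library, given in the order C, T1 and T3.

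H1 linker histones, which bind the DNA between nucleosomes, gave the 2 members with most UMIs, Hist1h1c and Hist1h1e, together 20.2% of all histone UMIs. Hist1h1c had 87.9, 55.7 and 65.3 CPM. Hist1h1e had 62.1, 42.2 and 49.6 CPM. Hist1h1d had 27.6, 13.6 and 18.7 CPM. These 3 were lowest in T1. Hist1h1b had 15.1, 10.47 and 2.93 CPM. Hist1h1a had 5.68, 5.29 and 7.76 CPM. Hist1h1b was thus lowest in T3, whereas Hist1h1a was highest there.

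Among the H2A genes, 7 of the 12 with at least 100 UMIs were highest in C and 5 in T3. Hist3h2a had 32.8, 24.3 and 23.5 CPM. Hist1h2ae had 26.8, 17.8 and 9.92 CPM. Hist1h2ap had 27.3, 12.5 and 11.4 CPM. All 3 were highest in C, as were 3 genes of lower level. Hist1h2ak had 4.0, 3.26 and 2.10 CPM. Hist1h2an had 3.40, 2.62 and 1.26 CPM. Hist1h2ab had 4.87, 4.01 and 0.629 CPM. The cluster 2 genes ran the other way and were highest in T3. Hist2h2aa1 had 16.5, 14.5 and 25.4 CPM. Hist2h2ac had 16.3, 13.8 and 17.0 CPM. Hist2h2ab had 2.50, 2.62 and 5.31 CPM. Of the remaining 3, Hist1h2ac and Hist1h2ad were highest in T3 and Hist1h2ag in C. Hist1h2ac had 8.54, 5.47 and 12.6 CPM. Hist1h2ad had 1.96, 1.48 and 2.24 CPM. Hist1h2ag had 1.5, 1.11 and 1.12 CPM.

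Among the H2B genes, 12 of 16 were highest in C and 12 of 16 were lowest in T1. Hist1h2bc had 20.2, 12.1 and 15.4 CPM. Hist1h2be had 14.9, 11.2 and 14.0 CPM. Hist3h2ba had 14.0, 10.2 and 13.3 CPM. In these, T3 lay between the other libraries. Hist1h2bj had 11.6, 7.33 and 8.45 CPM. Hist1h2bg had 6.26, 3.87 and 5.17 CPM. Hist1h2bb had 7.46, 3.37 and 3.56 CPM. All 3 were again lowest in T1. Hist2h2bb had 8.96, 8.49 and 11.8 CPM. Hist1h2bh had 3.70, 3.95 and 6.99 CPM. Hist2h2be had 2.38, 1.54 and 3.35 CPM. These 3 and Hist1h2bf, with 2.26, 1.08 and 2.93 CPM, were the H2B genes highest in T3. The remaining 6 were under 6 CPM everywhere. Hist1h2br had 5.38, 2.68 and 2.86 CPM. Hist1h2bn had 2.98, 2.06 and 1.68 CPM, and Hist1h2bm had 2.98, 1.95 and 1.54 CPM. Hist1h2bp had 2.98, 0.756 and 0.629 CPM. Hist1h2bk had 2.59, 0.901 and 0.908 CPM, and Hist1h2bl had 1.74, 0.814 and 1.40 CPM.

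Of the H3 genes, 5 of 7 were highest in C. Hist1h3e had 23.9, 22.0 and 20.96 CPM. Hist1h3a had 21.4, 16.6 and 23.8 CPM. Hist2h3b had 10.9, 8.35 and 14.3 CPM. The last 2 of these were highest in T3. Hist1h3f had 10.4, 9.60 and 9.85 CPM. Hist1h3i had 8.51, 6.48 and 5.03 CPM. Hist1h3d had 4.63, 2.94 and 2.45 CPM. Hist1h3c was far lower in T3 than in the other libraries, with 3.37, 1.92 and 0.419 CPM (112, 66 and 6 UMIs).

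Of the H4 genes, 7 of 11 were highest in T3 and 9 of 11 lowest in T1. Hist1h4i had 35.6, 27.8 and 28.1 CPM. Hist1h4d had 27.5, 25.7 and 20.3 CPM. Hist1h4c had 21.8, 19.4 and 24.6 CPM. Only the last of these 3 was highest in T3. Hist1h4h had 17.96, 12.4 and 21.7 CPM. Hist4h4 had 14.2, 12.998 and 24.0 CPM. Hist2h4 had 14.3, 12.7 and 15.9 CPM. In all 3 T3 stood highest, as it did for Hist1h4n with 10.3, 8.81 and 18.7 CPM. Hist1h4b had 5.65, 3.81 and 6.15 CPM, and Hist1h4a had 4.27, 3.87 and 4.96 CPM. Hist1h4j had 3.52, 1.69 and 2.52 CPM. Hist1h4m stood out in T3, where it had 1 UMI, with 3.1, 1.98 and 0.0699 CPM. The 10 members with 20 to 99 UMIs were Hist1h2ai, Hist1h3h, Hist1h4f, Hist1h2af, Hist1h3b, Hist2h3c1, Hist1h4k, Hist1h3g, Hist1h2ao and Hist2h3c2, and each stayed under 2 CPM in every library.

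The first comparison asked how far histone transcripts go with the gate. A barcode was positive with at least 1 UMI of Mki67 or Top2a and negative with 0. B-lineage barcodes had at least 2 UMIs over a short list of B-cell genes, among them Cd79a, Cd79b and Ms4a1, and 0 of the CD3 chains, which gave 2662, 2980 and 930 barcodes in C, T1 and T3. CD3-positive barcodes had at least 2 UMIs of Cd3d, Cd3e and Cd3g with at most 1 UMI of the B-cell genes and 0 of Ms4a1, which gave 1808, 1776 and 1760 barcodes. Markers outside the rule went with the names: the B list (Pax5, Fcmr, Bank1, Cd22, Ebf1) summed to 3050 CPM in negative B-lineage barcodes and 30.6 CPM in negative CD3-positive barcodes of C, and the T list (Trac, Trbc1, Trbc2, Cd4, Cd8a, Lck, Cd2) to 216 CPM and 3900 CPM. A member was called higher or lower when its CPM differed at least 2-fold, the 2 groups together had at least 20 UMIs, and the exact 95% interval of the ratio excluded no difference. All intervals cover counting error only.

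In the B lineage, histone transcripts were higher in positive than in negative barcodes of all 3 libraries, but the T3 value rested on 1 barcode. In C, 300 positive barcodes averaged 1519 CPM and 2362 negative barcodes 601 CPM, a log2 ratio of 1.34 (1.28 to 1.39). In T1, 283 positive barcodes averaged 825 CPM and 2697 negative barcodes 404 CPM, a log2 ratio of 1.03 (0.95 to 1.11). In T3, 35 positive barcodes averaged 1283 CPM and 895 negative barcodes 624 CPM, a log2 ratio of 1.04 (0.82 to 1.25). Of the 205 histone UMIs of these 35 barcodes, 122 came from 1 barcode, and the ratio was -0.15 without the barcode with most histone UMIs in each group. The median log2 ratio of all genes tested was 0.06, 0.11 and 0.02 in C, T1 and T3.

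By member, 31 of the 55 tested in C B-lineage barcodes were higher in positive barcodes and 0 lower, where the same rule called 10.9% of all 10336 genes tested higher and 5.31% lower. In T1, 18 of 46 were higher and 0 lower, against 7.58% and 1.05% of all genes. In T3, 6 of 26 were higher and 0 lower, against 6.05% and 1.71%, and 0 were higher without the single barcode. Some members reached 20 UMIs only through the positive barcodes and had to differ to be tested. Of those with at least 20 UMIs in negative barcodes alone, 18 of 41 were higher in C, 13 of 39 in T1 and 6 of 25 in T3. The share of all genes called under this restriction was not computed, and the shares above come from the wider set of genes tested.

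CD3-positive barcodes did not share this difference in C and T3. In C, 154 positive barcodes averaged 492 CPM and 1654 negative barcodes 559 CPM, a log2 ratio of -0.18 (-0.32 to -0.05). In T3, 108 positive barcodes averaged 405 CPM and 1652 negative barcodes 446 CPM, a log2 ratio of -0.14 (-0.32 to 0.04). In T1, 235 positive barcodes averaged 581 CPM and 1541 negative barcodes 462 CPM, a log2 ratio of 0.33 (0.23 to 0.43), and 0.14 without the barcode with most histone UMIs in each group. Of members tested in C, 1 of 42 was higher (Hist1h1b, 1.45) and 2 lower (Hist1h2ac, -2.70, and Hist1h3a, -1.07), against 1.98% of all genes higher and 1.1% lower. In T1, 5 of 42 were higher and 0 lower, against 2.16% and 1.21% of all genes. Of the 36 members with at least 20 UMIs in negative barcodes alone, 3 were higher there, with a median log2 ratio of -0.0587. The matching share of all genes was not computed. In T3, 1 of 33 was higher (Hist1h1d, 1.08) and 3 lower (Hist3h2a, Hist1h4n and Hist1h4c, -1.25 to -1.37), against 3.9% and 1.59%. The difference of the gate's effect between lineages could not be tested with 1 library per group.

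Counting the gate UMIs separated the barcodes further. With depth not matched, barcodes with exactly 1 UMI of Mki67 or Top2a had no more histone transcripts, in CPM, than barcodes with 0. The B-lineage difference between positive and negative barcodes lay in those with 2 or more gate UMIs. In B-lineage barcodes of C with 0, 1 and 2 or more gate UMIs, histone transcripts stood at 601, 545 and 2298 CPM (2362, 173 and 127 barcodes). In T1 they stood at 404, 385 and 1413 CPM (2697, 193 and 90 barcodes). In T3 they stood at 624, 422 and 2705 CPM (895, 26 and 9 barcodes), with 831 CPM for 2 or more once the barcode of 122 histone UMIs was left out. The log2 ratio of 2 or more over 0 was 1.94 (1.88 to 1.99) in C, 1.81 (1.72 to 1.89) in T1 and 2.12 (1.88 to 2.35) in T3. Without the barcode with most histone UMIs among those with 2 or more, it was 1.91, 1.59 and 0.41 (-0.07 to 0.86). The log2 ratio of exactly 1 over 0 was -0.14, -0.07 and -0.56 in C, T1 and T3. Median UMIs per barcode at 0, 1 and 2 or more were 4580, 5436 and 10408 in C and 4924, 5633 and 8088 in T1. In T3 they were 3173, 3481 and 5459. Histone CPM of negative barcodes fell with depth, as given further on, and the part of depth in these ratios was not tested.

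In CD3-positive barcodes with 0, 1 and 2 or more gate UMIs, C stood at 559, 483 and 513 CPM, T1 at 462, 401 and 978 CPM, and T3 at 446, 415 and 378 CPM. T1 was the only library with a higher value at 2 or more, 1.08 (0.95 to 1.21) on the log2 scale. Its 66 such barcodes held 524 histone UMIs, 140 of them in 1 barcode, and the ratio was 0.68 (0.53 to 0.83) without that barcode. The log2 ratio was -0.12 in C and -0.24 in T3, with 43 and 25 barcodes at 2 or more. Depth was not matched across these steps either.

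**Figure D1:**
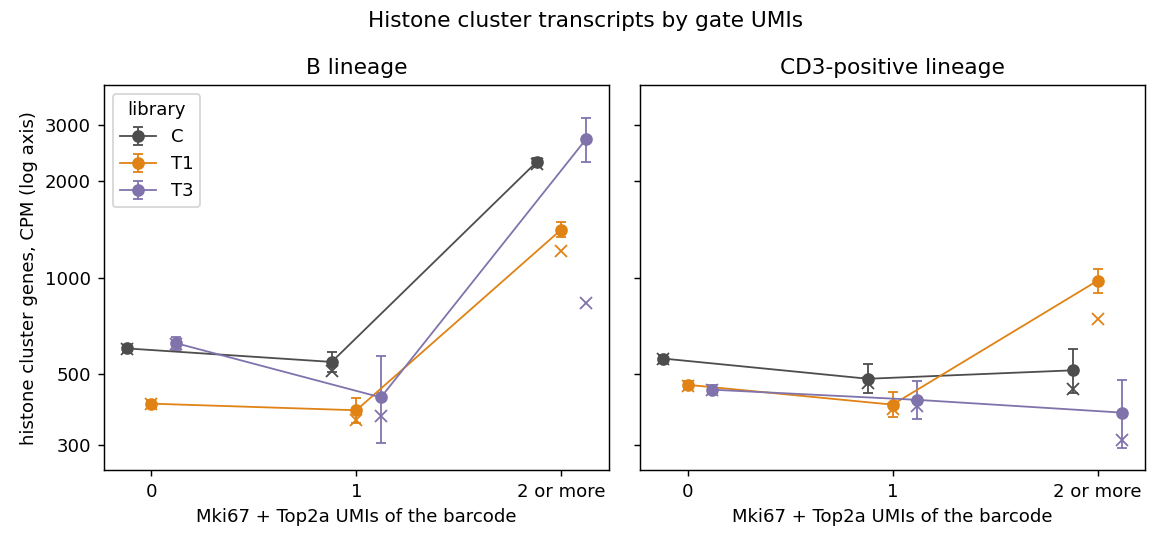
Histone cluster transcripts in CPM (log axis) of B-lineage (left) and CD3-positive (right) barcodes with 0, 1, or 2 or more UMIs of Mki67 and Top2a together, in C, T1 and T3; bars are exact 95% Poisson intervals and crosses leave out the barcode with most histone UMIs. In the B lineage C stood at 601, 545 and 2298 CPM, and the T3 point of 2705 CPM at 2 or more came to 831 CPM without 1 barcode. The steps are not matched for depth.

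The S-phase and G2/M gene lists were highest at 2 or more gate UMIs as well. In B-lineage barcodes of C with 0, 1 and 2 or more gate UMIs, the 35 S-phase genes summed to 596, 762 and 4468 CPM and the 28 G2/M genes to 140, 183 and 2431 CPM. In CD3-positive barcodes of C the S-phase genes summed to 621, 807 and 938 CPM and the G2/M genes to 74.5, 76.2 and 378 CPM. In CD3-positive barcodes of T1 they summed to 568, 745 and 1435 CPM, and to 108, 147 and 903 CPM. The CD3-positive barcodes with 2 or more gate UMIs therefore held fewer S-phase and G2/M transcripts, in CPM, than the B-lineage barcodes with 2 or more in C, and in T1 the B-lineage sums were 3349 and 1340 CPM.

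By member, 40 of the 55 tested in B-lineage barcodes of C were higher with 2 or more gate UMIs than with 0, and 0 were lower, where the rule called 17.3% of all genes higher and 8.85% lower. In T1, 26 of 45 were higher and 1 lower, against 13% and 3.13% of all genes. In T3, 12 of 26 were higher and 0 lower, against 8.57% and 1.92%, and 2 of 25 were higher without the barcode with most histone UMIs among those with 2 or more. Of those with at least 20 UMIs at gate count 0 alone, 26 of 41 were higher in C and 21 of 39 in T1, and the matching share of all genes was not computed. The median log2 ratio of these members was 1.29 in C and 1.10 in T1, and that of all genes reaching the same count was 0.13 and 0.16. In CD3-positive barcodes, 4 of 41 members were higher and 1 lower in C (3.23% and 1.37% of all genes), 7 of 40 higher and 0 lower in T1 (4.29% and 1.35%), and 0 of 33 in either direction in T3 (5.66% and 1.36%). The T1 count was 4 of 38 without the barcode of 140 histone UMIs. It was also 4 among the 36 members with at least 20 UMIs at gate count 0 alone, whose median log2 ratio was 0.018, against 0.11 for all genes of that kind.

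The members differed widely in how far they went with the gate. Hist1h2ap, an H2A gene with a terminal stem-loop, had 335 CPM in B-lineage barcodes of C with 2 or more gate UMIs and 7.24 CPM in those with 0 (552 and 84 UMIs), a log2 ratio of 5.53 (5.20 to 5.88). In T1 it had 117 and 4.52 CPM (108 and 62 UMIs), a log2 ratio of 4.69 (4.23 to 5.16). In T3 it had 232 and 14.7 CPM (14 and 41 UMIs), a log2 ratio of 3.98 (2.99 to 4.89). The gene passed the rule in all 3 libraries, but in T3 it had 1 UMI in place of 14 without the barcode of 122 histone UMIs, and a log2 ratio of 0.47 (-4.87 to 3.02).

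Hist1h2ae, the H2A gene of the divergent pair shown above, had 284 CPM with 2 or more gate UMIs and 10.8 CPM with 0 in C, a log2 ratio of 4.72 (4.43 to 5.02). Its log2 ratio was 4.59 (4.22 to 4.96) in T1 and 3.21 (2.07 to 4.21) in T3, where it was 0.18 (-5.15 to 2.72) without the barcode of 122 histone UMIs. Its neighbour Hist1h2bg was higher too, by 2.76 in C and 2.15 in T1 on the log2 scale. Hist1h1b, an H1 gene, had 150 CPM with 2 or more and 10.0 CPM with 0 in C (247 and 116 UMIs), a log2 ratio of 3.91 (3.58 to 4.24), and 4.80 (4.38 to 5.23) in T1. It was the H1 gene with the highest ratio in both libraries.

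In B-lineage barcodes of C, several members had most of their UMIs in the 127 barcodes with 2 or more gate UMIs. The 5 named next reached 20 UMIs only through those barcodes, so they had to differ to be tested, and their values are given as a description. Hist1h3c had 63 UMIs there, 3 in barcodes with 1 and 3 in the 2362 barcodes with 0, a log2 ratio of 7.21 (5.60 to 9.53). Hist1h3b had 25, 1 and 1 UMIs, a log2 ratio of 7.46 (4.85 to 12.82). Hist1h2bk had 53, 2 and 5 UMIs, a log2 ratio of 6.22 (4.91 to 7.90). All 3 have a terminal stem-loop and encode H3 or H2B. Hist1h2ab, a terminal H2A gene, had 93, 5 and 13 UMIs, a log2 ratio of 5.66 (4.81 to 6.62), and 5.78 (4.91 to 6.75) in T1. Hist1h2af, an H2A gene with no annotated stem-loop, had 25, 0 and 0 UMIs, at least 58.7-fold higher with 2 or more than with 0 when 3 counts are taken as the floor of the group at 0.

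Other members with many UMIs did not pass the rule. Hist1h1c had 87.4 CPM in B-lineage barcodes of C with 2 or more gate UMIs and 111 CPM in those with 0 (144 and 1285 UMIs), a log2 ratio of -0.34 (-0.60 to -0.09), and 0.07 (-0.36 to 0.48) in T1. Hist1h1e had 93.5 and 61.6 CPM, a log2 ratio of 0.60 (0.34 to 0.86). Hist3h2a had 20.6 and 39.6 CPM, a log2 ratio of -0.94 (-1.49 to -0.43). In T1 Hist3h2a was called lower, at -1.16 (-2.13 to -0.34), the only member lower there. Hist1h4i, an H4 gene with a transcript running past the hairpin, lay between, with 109 and 35.9 CPM and a log2 ratio of 1.60 (1.34 to 1.85) in C, 1.88 in T1 and 2.04 in T3, the last 0.92 (-1.39 to 2.51) without the barcode of 122 histone UMIs.

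**Figure D2:**
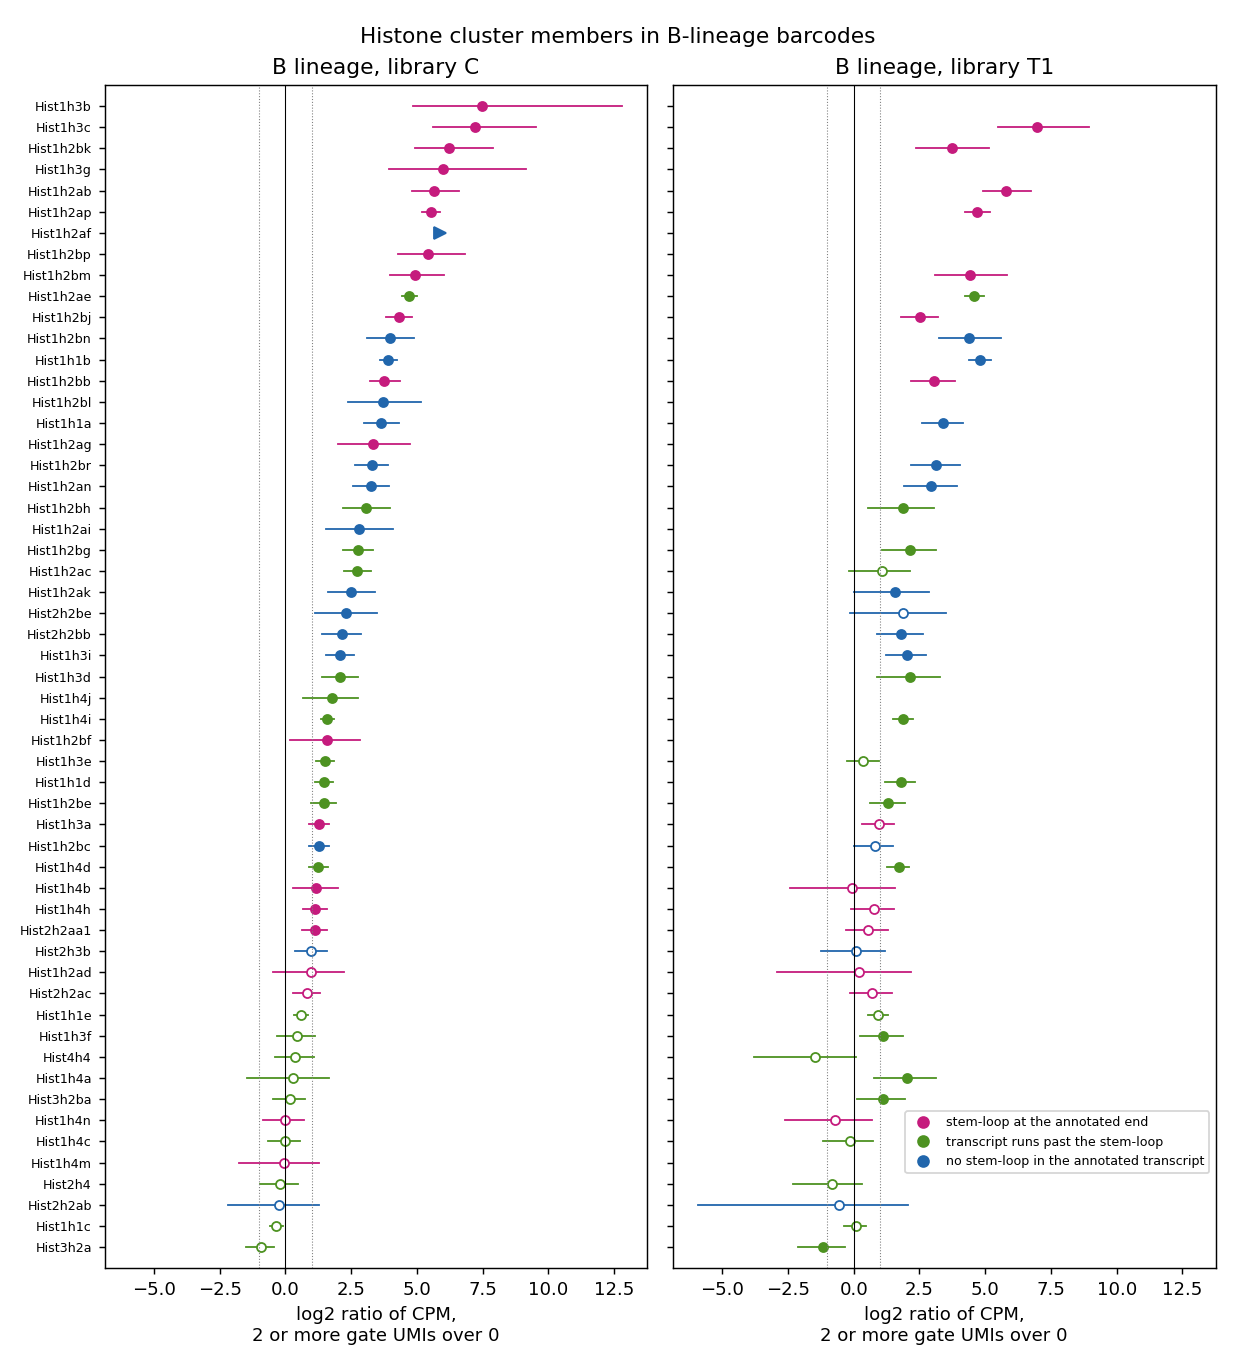
Log2 ratio of CPM in B-lineage barcodes with 2 or more gate UMIs over those with 0, for each member with at least 20 UMIs, in C (left) and T1 (right); lines are exact 95% intervals, filled points are past the rule of size, the triangle is a lower bound, dotted lines mark 2-fold, and colours give the stem-loop class. Hist1h3b, Hist1h3c and Hist1h2bk stand at the top in C, where each reached 20 UMIs only through the barcodes with 2 or more gate UMIs, and Hist1h1c and Hist3h2a end the list at -0.34 and -0.94.

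Among CD3-positive barcodes of T1, 7 members were higher with 2 or more gate UMIs than with 0: Hist1h2ap (6.29), Hist1h2ab (5.40), Hist1h2ae (5.10), Hist1h1b (5.09), Hist1h2ak (2.73), Hist1h2bm (2.50) and Hist1h2bj (1.64), as log2 ratios. Only 4 of these 7 reached the minimum UMI count of the rule at gate count 0 alone. The rest reached it only through the barcodes with 2 or more gate UMIs, so their ratios are given as a description. Hist1h2ap had 202 CPM with 2 or more and 2.57 CPM with 0 (108 and 25 UMIs). In C the same gene had 15.7 and 8.85 CPM (5 and 87 UMIs), a log2 ratio of 0.83 (-0.83 to 2.11). In T3 it had 10.97 and 7.83 CPM (2 and 58 UMIs), a log2 ratio of 0.49 (-2.59 to 2.40). The intervals in C and T3, from 43 and 25 barcodes, end below the T1 value. All 7 members were also higher in B-lineage barcodes of T1. Without the barcode of 140 histone UMIs, 4 of the 7 were past the rule in the CD3-positive barcodes: Hist1h2ap (5.44), Hist1h1b (4.69), Hist1h2ae (4.54) and Hist1h2ak (2.49).

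By stem-loop class, the summed ratio of positive over negative B-lineage barcodes was highest for terminal members in C and T3 and for members with no annotated stem-loop in T1. Terminal members summed to 532 CPM in positive and 106 CPM in negative barcodes of C, a log2 ratio of 2.32, and to ratios of 1.52 in T1 and 1.63 in T3. Members with no annotated stem-loop had ratios of 1.98, 1.79 and 1.44 in C, T1 and T3. Extended members summed to 707 CPM in positive and 423 CPM in negative barcodes of C, a log2 ratio of 0.74, and to 0.65 in T1 and 0.66 in T3. In CD3-positive barcodes the terminal ratio was -0.12, 0.88 and -0.01, and the extended ratio -0.23, 0.10 and -0.19, in C, T1 and T3. Without the barcode with most histone UMIs in each group, the ratios of terminal members, members with no annotated stem-loop and extended members were 2.27, 1.94 and 0.72 in C and 1.32, 1.44 and 0.56 in T1. In T3 they were -0.16, -0.48 and -0.0927, so the T3 order rested on 1 barcode. The classes differ in family and in the genes with most UMIs, whose parts in this difference were not tested.

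The family makeup of the histone UMIs differed with the gate in the B lineage. In C, H2A made up 35.6% (34.2 to 37.0) of histone UMIs in positive and 17.7% (16.8 to 18.6) in negative barcodes. H1 made up 20.1% in positive and 34.4% in negative barcodes, and H4 13.4% and 23.0%. H2B made up 19.7% and 12.7%, and H3 11.2% and 12.2%. In T1, H2A made up 28.3% in positive and 19.2% in negative barcodes, and H1 25.1% and 27.5%. H2A in CD3-positive barcodes of T1 made up 33.1% in positive and 15.5% in negative barcodes. In CD3-positive barcodes of C the shares lay close, with H2A at 14.9% (11.9 to 18.2) in positive and 16.5% (15.5 to 17.5) in negative barcodes.

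A few barcodes carried most of the histone UMIs of the positive B-lineage group. In C the top 10% of positive barcodes held 68.9% of its histone UMIs, against 35.6% for the top 10% of negative barcodes. The shares were 67.0% and 38.0% in T1 and 71.7% and 37.5% in T3. In CD3-positive barcodes they were 35.9% and 30.9% in C, 53.1% and 34.3% in T1, and 33.1% and 33.4% in T3. Above 4000 UMIs, 37 of 251 positive B-lineage barcodes of C had at least 20 histone UMIs, or 14.7% (10.6 to 19.7), against 10 of 1600 negative barcodes, or 0.625% (0.300 to 1.15). In T1 it was 14 of 239 positive barcodes, or 5.86%, against 4 of 1883 negative barcodes, or 0.212%. In T3 it was 1 of 17 positive and 0 of 313 negative barcodes.

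To compare shares at 1 depth, each barcode was thinned to 1000 UMIs by 1 random draw. In the B lineage of C the share with any histone UMI was 45.9% (40.2 to 51.8) in positive and 41.4% (39.4 to 43.5) in negative barcodes, where the unthinned shares were 89.3% and 81.1%. In T1 it was 33.2% and 30.2%, and in T3 40.6% and 39.2%, with overlapping intervals in each library. Thinned to 500 UMIs, which left out no barcode, the share was 34.0% (28.7 to 39.7) in positive and 26.0% (24.2 to 27.8) in negative barcodes of C, where the intervals did not overlap. At that depth it was 23.3% (18.5 to 28.7) and 19.8% (18.3 to 21.3) in T1, and 22.9% (10.4 to 40.1) and 31.3% (28.3 to 34.4) in T3. Among barcodes above 4000 UMIs it was 27.2% (21.7 to 33.3) and 16.8% (15.1 to 18.5) in T1. There it was 30.3% (24.7 to 36.4) and 22.6% (20.6 to 24.8) in C, where the intervals overlapped. T3 ran the other way in that bin, with 5.88% (0.149 to 28.7) and 14.4% (10.7 to 18.8). Thinned to 1000 UMIs, the T1 bin gave 33.5% (27.5 to 39.8) and 28.9% (26.9 to 31.0), which overlapped. The mean number of histone UMIs per barcode thinned to 1000 UMIs in C was 1.87 in positive and 0.645 in negative barcodes. In CD3-positive barcodes the thinned share was 36.4% in positive and 40.9% in negative barcodes of C, 31.5% and 34.4% in T1, and 29.1% (20.6 to 38.9) and 37.8% (35.3 to 40.3) in T3. Thinning to 1000 UMIs left out 4 positive and 101 negative B-lineage barcodes in C, 3 and 130 in T1, and 3 and 178 in T3, and from 0 to 5 positive and 17 to 138 negative CD3-positive barcodes. No barcode group was known to lack histone transcripts, so a background share could not be set.

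The positive and negative barcodes also differed in cell-type markers. In B-lineage barcodes the germinal centre list (Rgs13, Mef2b, S1pr2, Bcl6; all 4 found in each group) summed to 474 CPM in positive and 66.4 CPM in negative barcodes of C, 235 and 49.1 CPM in T1, and 207 and 40.8 CPM in T3. The plasma cell list (Jchain, Sdc1, Mzb1, Xbp1, Tnfrsf17) summed to 13085 and 4374 CPM in C, 5603 and 3475 CPM in T1, and 3387 and 336 CPM in T3. Sdc1 and Tnfrsf17 were at 0 in positive and Tnfrsf17 in negative barcodes of T3, and all 5 genes were found in the other groups. The B list was lower in positive than in negative barcodes, at 1609 and 3050 CPM in C, 2136 and 2995 CPM in T1, and 2636 and 3768 CPM in T3. The T list stood at 152 and 216 CPM in C, 192 and 245 CPM in T1, and 150 and 262 CPM in T3. The part of cell type and of doublets in the histone differences was not tested.

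The 2 lineages were set side by side above 4000 UMIs. Positive B-lineage barcodes had 1419 CPM and positive CD3-positive barcodes 480 CPM in C, a log2 ratio of 1.56 (1.43 to 1.70). The ratio was 0.44 (0.33 to 0.56) in T1 and 1.73 (1.44 to 2.02) in T3, the last from 17 and 91 barcodes. Without the barcode with most histone UMIs in each group it was 1.58 in C, 0.46 in T1 and -0.0873 (-0.61 to 0.40) in T3, so the T3 value rested on the barcode of 122 histone UMIs. Among negative barcodes, the B lineage had 537 CPM and the CD3-positive lineage 538 CPM in C, 344 and 440 CPM in T1, and 365 and 378 CPM in T3. The log2 ratios were -0.0028 (-0.06 to 0.05), -0.35 (-0.42 to -0.29) and -0.05 (-0.18 to 0.08).

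Between the lineages, members were called in both directions. In negative barcodes above 4000 UMIs, 4 of 45 members were higher and 6 lower in the B lineage of C, against 8.48% and 17.4% of all genes. In T1, 1 of 43 was higher and 8 lower, against 8.65% and 17.5%, and in T3, 2 of 32 were higher and 6 lower, against 9.76% and 12.5%. The shares of members called were thus near or below those of all genes, except for those lower in T3, which lay above. The counts are not a result about the members, and the genes below are named as a description. Hist4h4 had 8.24 CPM in negative B-lineage and 21.5 CPM in negative CD3-positive barcodes of C (79 and 196 UMIs). Its log2 ratio was -1.38 in C, -1.45 in T1 and -1.42 in T3. Hist1h1a, an H1 gene, had log2 ratios of -1.63, -1.50 and -2.55. Hist1h2bh, an H2B gene, had -1.50, -1.93 and -1.78. These 3 were lower in the B lineage past the rule in all 3 libraries. Hist1h1b was higher in the B lineage, at 2.05 in C (10.0 and 2.41 CPM) and 1.61 in T1. Hist1h2bc, an H2B gene, was higher in C, with 22.2 CPM in B-lineage and 8.77 CPM in CD3-positive barcodes.

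Negative barcodes of low depth held more histone transcripts, in CPM, in both lineages of every library. In negative B-lineage barcodes of C with 500 to 1500, 1500 to 4000 and above 4000 UMIs, histone transcripts stood at 2228, 791 and 537 CPM (167, 595 and 1600 barcodes). In T1 they stood at 2127, 580 and 344 CPM (241, 573 and 1883 barcodes). In T3 they stood at 2035, 667 and 365 CPM (306, 276 and 313 barcodes). In CD3-positive barcodes the levels were 1687, 741 and 538 CPM in C, 1090, 719 and 440 CPM in T1, and 983, 675 and 378 CPM in T3. The order of the bins was the same in all 6 groups, and the intervals of neighbouring bins did not overlap.

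The log2 ratio of 500 to 1500 UMIs over above 4000 UMIs was 2.05, 2.63 and 2.48 in the B lineage and 1.65, 1.31 and 1.38 in the CD3-positive lineage of C, T1 and T3. Higher in the low bin were 26 of 38 members in C, 30 of 37 in T1 and 20 of 22 in T3 for the B lineage, where the rule called 13.7%, 18.3% and 13.2% of all genes higher. For the CD3-positive lineage it was 9 of 38, 6 of 34 and 15 of 33, against 9.21%, 8.49% and 7.83%. No member was lower in any of the 6, against 1.55%, 3.16% and 4.85% of all genes in the B lineage and 2.14%, 1.84% and 1.49% in the CD3-positive lineage. The low bin was small, with 52 CD3-positive barcodes of C against 1376 in the high bin. A member with few UMIs in the high bin could not be called lower even at 0 in the low bin. The absence of lower members is therefore not a result about the members. The median log2 ratio of all genes tested was 0.29 to 0.45 in the B lineage and 0.08 to 0.19 in the CD3-positive lineage.

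The depth difference took in members that did not pass the rule for the gate. Hist1h1e had 240.5 CPM in the low and 53.0 CPM in the high bin of negative B-lineage barcodes of C (38 and 508 UMIs), a log2 ratio of 2.18. Its log2 ratio was 2.82 in T1 and 2.27 in T3. Hist1h1c had 253 and 96.0 CPM in C, a log2 ratio of 1.40, with 1.89 in T1 and 1.69 in T3. Both H1 genes also passed the rule in the CD3-positive lineage of all 3 libraries. Hist1h3a, an H3 gene with a terminal stem-loop, had 88.6 and 18.04 CPM in C, a log2 ratio of 2.30, with 3.61 in T1 and 3.002 in T3. Hist2h2bb, an H2B gene, had 63.3 and 2.19 CPM in C (10 and 21 UMIs), a log2 ratio of 4.85. Hist3h2a again stood apart, with 31.6 and 38.3 CPM in C and a log2 ratio of -0.27, and it passed the rule in none of the 6 groups. Terminal and extended members had summed log2 ratios of 2.40 and 1.89 in C, 2.98 and 2.54 in T1, and 3.25 and 2.16 in T3 in the B lineage.

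**Figure D3:**
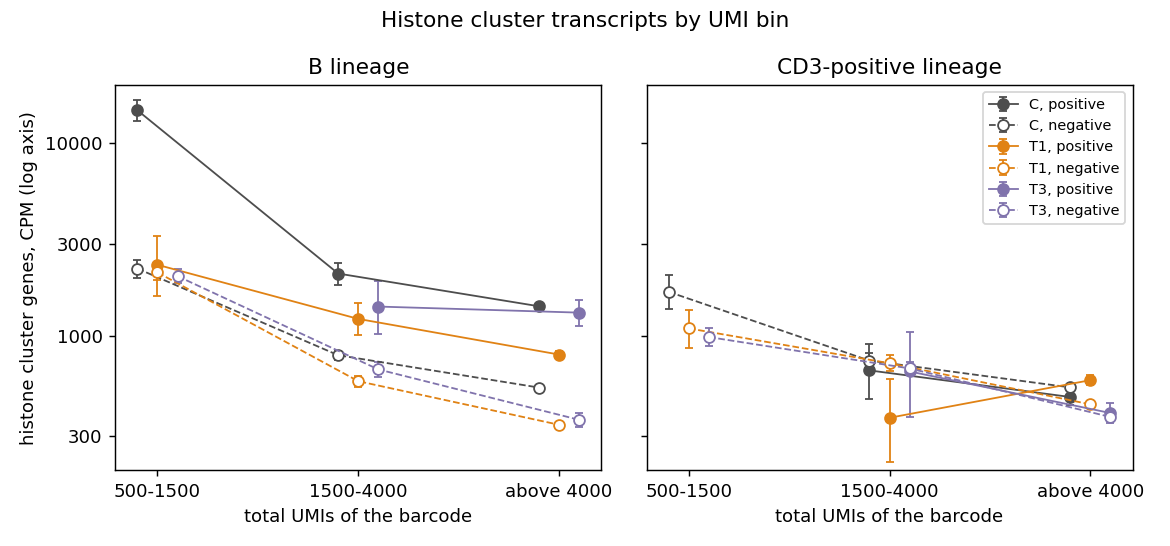
Histone cluster transcripts in CPM (log axis) by total UMIs of the barcode in B-lineage (left) and CD3-positive (right) barcodes of C, T1 and T3; filled points and solid lines are gate-positive, open points and dashed lines gate-negative barcodes, bars are exact 95% Poisson intervals, and groups with under 5 barcodes or at most 3 histone UMIs are not drawn. Negative B-lineage barcodes of C stood at 2228, 791 and 537 CPM in the 3 bins.

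Nuclear and rRNA-overlapping transcripts moved with depth too. In negative B-lineage barcodes of C, Malat1, a nuclear long noncoding RNA, stood at 55174 CPM in the low and 26563 CPM in the high bin. Gm42418, which overlaps ribosomal RNA sequence, stood at 41295 and 8837 CPM. Mitochondrial transcripts made up 9.64% and 5.72% of UMIs, and ribosomal protein transcripts 15.9% and 32.6%. The same directions held in the other 5 groups. The part of RNA quality in the depth difference was not tested.

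The gate's difference in the B lineage was present within depth bins of C and T1 above 1500 UMIs. Above 4000 UMIs, positive barcodes had 1419 CPM and negative barcodes 537 CPM in C, a log2 ratio of 1.40 (1.34 to 1.46). They had 797 and 344 CPM in T1, a log2 ratio of 1.21 (1.13 to 1.29). Between 1500 and 4000 UMIs the log2 ratio was 1.41 in C and 1.07 in T1. There positive barcodes had 2099 CPM in C and 1221 CPM in T1, but 1087 and 808 CPM without the barcode with most histone UMIs, against 791 and 580 CPM in negative barcodes. At 500 to 1500 UMIs, 15 positive barcodes of C held 246 histone UMIs in 16648 UMIs, or 14777 CPM (8980 CPM without the barcode of 109 histone UMIs), while 12 positive barcodes of T1 had 2331 CPM and differed from the negative ones by 0.13 (-0.42 to 0.64). In CD3-positive barcodes above 4000 UMIs, positive barcodes had 480 and negative barcodes 538 CPM in C, 587 and 440 CPM in T1, and 396 and 378 CPM in T3.

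The second comparison set the neoplasia libraries against the healthy one. In the B lineage, T1 had fewer histone transcripts than C, at 461 CPM in T1 and 788 CPM in C, a log2 ratio of -0.77 (-0.82 to -0.73). Of 58 members tested, 20 were lower in T1 and 0 higher, against 4.06% of all genes lower and 0.823% higher. The median log2 ratio of all genes was -0.12. Hist1h2ap had 10.96 CPM in T1 and 44.8 CPM in C (174 and 652 UMIs), a log2 ratio of -2.03 (-2.28 to -1.79). Hist1h2ae had 17.4 CPM in T1 and 41.9 CPM in C (277 and 611 UMIs), a log2 ratio of -1.27 (-1.48 to -1.06). Hist1h2bp had 9 UMIs in T1 and 50 in C, a log2 ratio of -2.60, the lowest of the 20. It reached 20 UMIs through C alone. The other 17 were 13 H2A or H2B genes, among them Hist1h2bj (-1.29) and Hist3h2ba (-1.01), with Hist1h3g, Hist1h3b, Hist1h4j and Hist1h4m of H3 and H4. Of these, Hist1h3b and Hist1h3g had 18 and 16 UMIs in the whole of T1, so they too reached 20 UMIs through C alone. All 20 lower members had at least 20 UMIs in C. The count among members with at least 20 UMIs in T1 was not computed, so the number lower is given as a description.

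T3 differed from C less and in fewer members when barcodes of all depths were taken, at 660 CPM in T3 and 788 CPM in C, a log2 ratio of -0.26 (-0.33 to -0.19). Of 55 members, 10 were lower and 1 higher in T3, against 5.16% of all genes lower and 5.75% higher. The B lineage held 930 barcodes in T3 and 2980 in T1, so an equal difference could pass the rule in fewer members of T3. Above 4000 UMIs the T3 difference was larger and more members were lower, as given in the closing section. Hist1h4m had 0 UMIs in T3 and 47 in C, Hist1h2af 0 and 25, and Hist1h3g 0 and 20. They reached 20 UMIs through C alone, with 2662 B-lineage barcodes in C and 930 in T3, and are given as a description. Hist1h1b had 6.43 CPM in T3 and 25.7 CPM in C (19 and 374 UMIs), a log2 ratio of -1.996 (-2.74 to -1.33). Hist1h2ap had 18.6 CPM in T3 and 44.8 CPM in C, a log2 ratio of -1.26 (-1.69 to -0.87). Hist1h2bf, the 1 member higher, had 16 UMIs in T3 and 29 in C, a log2 ratio of 1.44 (0.47 to 2.37). T1 and T3 were both set against the same library C, so the 2 comparisons are not independent.

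The share of positive barcodes moved between the libraries as well. It was 11.3%, 9.5% and 3.76% of B-lineage barcodes and 8.52%, 13.2% and 6.14% of CD3-positive barcodes in C, T1 and T3. Among barcodes above 4000 UMIs it was 13.6%, 11.3% and 5.15% in the B lineage. In the CD3-positive lineage it was 8.87%, 14.7% and 8.59% there, so T3 lay near C once depth was held. The S-phase list had 7 of 35 genes lower in T1 than in C and 20 of 35 lower in T3 than in C in the B lineage, and the G2/M list 24 and 16 of 28. Among negative barcodes alone, B-lineage histone transcripts stood at 404 CPM in T1 and 601 CPM in C, a log2 ratio of -0.57, and at 624 CPM in T3 and 601 CPM in C, a log2 ratio of 0.05 (-0.02 to 0.13). T3 held 306 of 895 negative B-lineage barcodes in the lowest depth bin and C 167 of 2362.

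With the gate and depth held, in negative barcodes above 4000 UMIs, histone transcripts were lower in both neoplasia libraries in both lineages. In the B lineage they stood at 344 CPM in T1 and 537 CPM in C, a log2 ratio of -0.64 (-0.70 to -0.58), and at 365 CPM in T3 and 537 CPM in C, a log2 ratio of -0.56 (-0.68 to -0.44). In the CD3-positive lineage they stood at 440 CPM in T1 and 538 CPM in C, a log2 ratio of -0.29 (-0.35 to -0.23), and at 378 CPM in T3 and 538 CPM in C, a log2 ratio of -0.51 (-0.58 to -0.44). The median log2 ratio of all genes was -0.11 and 0.07 in the B lineage and -0.09 and -0.16 in the CD3-positive lineage for T1 and T3. No interval reached the median of all genes, but counting intervals do not hold the spread between mice or libraries.

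By member in these barcodes, 7 of 45 were lower in T1 and 0 higher in the B lineage, against 2.81% and 0.734% of all genes. They were Hist1h4j (-1.89), Hist1h4m (-1.58), Hist1h3d (-1.49), Hist1h1d (-1.17), Hist2h2ab (-1.10), Hist1h1b (-1.08) and Hist3h2ba (-1.07). Of the 35 members with at least 20 UMIs in C alone, 6 were lower. The count among members with at least 20 UMIs in T1 alone was not computed. In T3, 9 of 38 were lower and 0 higher, against 3.67% and 4.14% of all genes. Of these, Hist1h4m, Hist2h2ab and Hist1h2an had 0 UMIs in T3 and 29, 26 and 25 UMIs in C. Hist1h2bg had 1 UMI in T3 and 43 in C, and Hist1h3e had 6.48 CPM in T3 and 19.5 CPM in C. All 9 reached 20 UMIs in C alone, which held 1600 of these barcodes against 313 in T3. Those at or near 0 UMIs in T3 passed the minimum only through C, so their values are given as a description. Members with many UMIs fell short of 2-fold: Hist1h1c had 49.2 CPM in T1, 50.7 CPM in T3 and 96.0 CPM in C, log2 ratios of -0.97 and -0.92, and Hist1h1e had 31.1, 41.2 and 53.0 CPM, log2 ratios of -0.77 and -0.36.

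In CD3-positive barcodes of all depths and gates, T1 had 480 CPM and C 552 CPM, a log2 ratio of -0.20 (-0.25 to -0.15), with 5 of 47 members lower and 0 higher (4.08% and 2.71% of all genes). T3 had 443 CPM and C 552 CPM, a log2 ratio of -0.32 (-0.38 to -0.26), with 7 of 45 lower and 0 higher (9.82% and 4.43%). Negative barcodes above 4000 UMIs gave 4 of 45 lower and 0 higher in T1 (4.21% and 2.51%), and 6 of 40 lower and 0 higher in T3 (10.7% and 3.7%). The shares of members lower in T3 were thus near those of all genes. Counts among members with at least 20 UMIs in T1 or T3 alone were not computed. Hist1h1d, an H1 gene, was lower past the rule in both libraries, with 11.8 CPM in T1, 7.41 CPM in T3 and 24.8 CPM in C, log2 ratios of -1.06 and -1.74. Hist1h2ap had 2.21 CPM in T1 and 8.44 CPM in C (20 and 77 UMIs), a log2 ratio of -1.93 (-2.72 to -1.21). Hist1h1e was lower in T3, with 25.8 CPM in T3 and 52.4 CPM in C, a log2 ratio of -1.02.

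**Figure D4:**
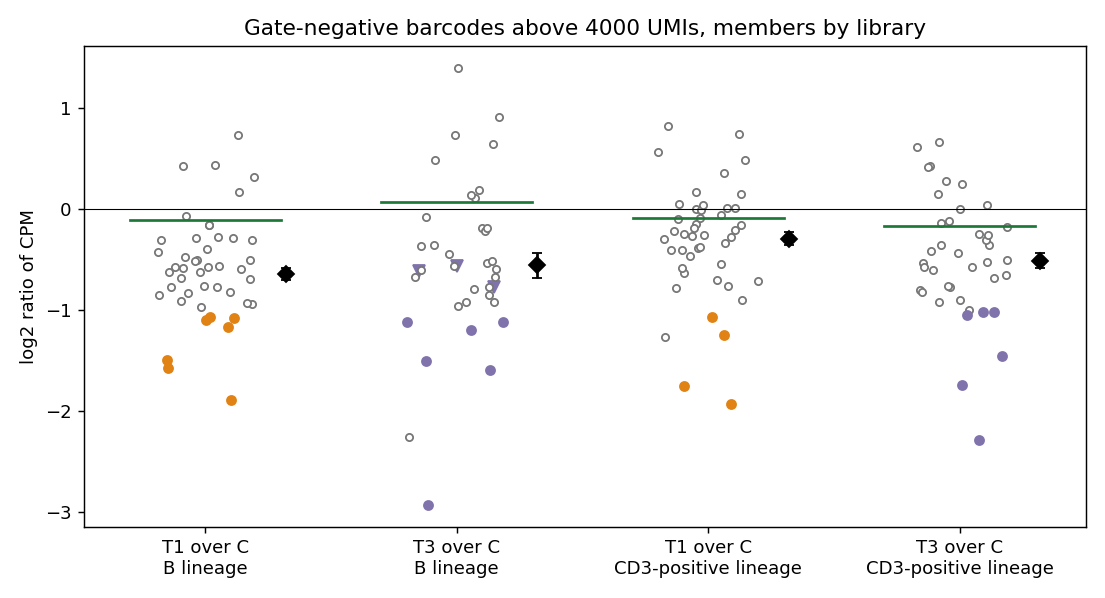
Log2 ratio of CPM for each member with at least 20 UMIs in gate-negative barcodes above 4000 UMIs, T1 over C and T3 over C, in the B and CD3-positive lineages; filled points are past the rule of size, triangles are members at 0 UMIs in T3 drawn at a floor of 3 counts, black diamonds are the summed ratio with its exact 95% interval, and green lines are the median of all genes. The diamonds sit at -0.64, -0.56, -0.29 and -0.51, each below its green line.

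Red cell transcripts were high in T3: the erythroid list (4 haemoglobin genes and Alas2) summed to 1295 CPM in negative B-lineage barcodes of T3, 4.59 CPM in T1 and 4.14 CPM in C, and to 3563, 0.617 and 46.2 CPM in negative CD3-positive barcodes. In negative CD3-positive barcodes the neutrophil list (S100a8, S100a9, G0s2, Csf3r, Retnlg) summed to 848 CPM in T3, 2.16 CPM in T1 and 11.5 CPM in C. Markers of other cells moved with the libraries among negative barcodes above 4000 UMIs as well. In the B lineage the plasma cell list summed to 3932 CPM in T1, 408 CPM in T3 and 5142 CPM in C, with Tnfrsf17 at 0 in T3. In the CD3-positive lineage the mast cell list (Cpa3, Mcpt4, Kit, Ms4a2) summed to 14.8 CPM in T1, 2.14 CPM in T3 and 69.8 CPM in C. Cpa3, Mcpt4 and Ms4a2 were at 0 in T1, and Mcpt4 and Ms4a2 in T3. The part of these cells in the histone levels was not tested beyond the values without haemoglobin-bearing barcodes in the closing section.

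Positive barcodes were also split by whether they held more S-phase than G2/M UMIs, which is a cut through a range and not a cell type. In negative barcodes of every library and lineage the S-phase list already stood higher, at 522 to 621 CPM against 74.5 to 148 CPM. Positive barcodes near those levels may thus fall on the S-phase side. The split therefore does not set S-phase cells against G2/M cells. In B-lineage barcodes of C, the 235 with more S-phase UMIs had 1203 CPM and the 65 others 2693 CPM, a log2 ratio of -1.16 (-1.25 to -1.07) and -1.24 without the positive barcode with most histone UMIs, with 70 barcodes within 1 UMI of the cut. In T1, 221 had 845 CPM and 62 had 735 CPM, a log2 ratio of 0.20 (0.02 to 0.39), and -0.00973 (-0.20 to 0.18) without 1 barcode of 230 histone UMIs among the 221. In T3, 20 had 2140 CPM and 15 had 395 CPM, a log2 ratio of 2.44 (1.88 to 3.04), and 0.90 (0.23 to 1.59) without the barcode of 122 histone UMIs among the 20. The CD3-positive ratios were -0.63, -0.47 and -0.27 in C, T1 and T3, and -0.70, -0.72 and 0.0244 without the barcode with most histone UMIs. The T1 sign in the B lineage and the T3 sign in the CD3-positive lineage thus turned on 1 barcode.

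Negative barcodes above 4000 UMIs showed no histone rise with S-phase UMIs in 5 of the 6 groups. With 0 to 1, 2 to 4 and 5 or more S-phase UMIs, B-lineage barcodes stood at 582, 550 and 478 CPM in C, 355, 342 and 339 CPM in T1, and 358, 336 and 430 CPM in T3. CD3-positive barcodes stood at 542, 545 and 529 CPM in C, 496, 440 and 417 CPM in T1, and 434, 386 and 317 CPM in T3. The T3 B-lineage step to 430 CPM (370 to 496) came from 72 barcodes, and its interval overlapped that at 0 to 1 UMIs (303 to 420). The split also sorted by depth: the median UMIs per barcode were 4819, 5094 and 6191 in the B lineage of C and 5337, 5970 and 6915 in the CD3-positive lineage of T3.

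Other genes of histone supply were set beside the members for positive over negative barcodes. The S-phase list had 34 of 35 genes higher in B-lineage barcodes of C, 32 of 35 in T1 and 11 of 21 in T3, and 7 of 30, 14 of 31 and 3 of 26 in CD3-positive barcodes. Of the histones made outside S phase as well, 5 of 10 tested were higher in B-lineage barcodes of C and of T1: H2afz, H1fx, H2afx, H2afv and H1f0. H2afz, the variant H2A.Z, had 1165 CPM in positive and 205 CPM in negative barcodes of C, a log2 ratio of 2.51 (2.43 to 2.58), and 1.60 (1.51 to 1.69) in T1. H3f3b, a gene of the variant H3.3, had 2209 and 2848 CPM in C, a log2 ratio of -0.37. In CD3-positive barcodes 0 of 9 were higher in C and in T1 and 1 of 9, H1f0, in T3.

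For genes that process histone mRNA, 4 of 16 were higher in positive B-lineage barcodes of C: Slbp, which binds the stem-loop, Eri1, an exonuclease that trims it, Npat, which activates histone genes, and Cpsf2, of the cleavage complex. Slbp had 219 CPM in positive and 99.4 CPM in negative barcodes, a log2 ratio of 1.14 (0.999 to 1.28), and 0.87 (0.69 to 1.05) in T1, where Ncbp2 of the cap-binding complex was the 1 higher gene. In T3 it was Casp8ap2, 1 of 15, and 0 of 16 were higher in CD3-positive barcodes of each library. Histone chaperones, which carry histones to DNA, had 6 of 13 genes higher in C, among them Nasp, Asf1b, Chaf1a and Chaf1b, 4 of 13 in T1 and 0 of 10 in T3. None of the genes in these 4 lists was lower in positive barcodes. Slbp, Chaf1a and Chaf1b stand on the S-phase list as well.

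Over 18 summed profiles (3 libraries, 2 lineages and 3 depth bins), the 5 genes outside the members whose CPM ranked most like the histone sum were Uba7 (Spearman rho 0.92), Atf7ip (0.90), Ppp1r10 (0.89), Vamp2 (0.89) and Rbm39 (0.88), of 9386 genes ranked. The profiles share libraries and differ in depth, and differ in lineage.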

How the data were processed

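Each library has 1 matrix of whole UMI counts, deposited unnormalized by gene and cell barcode, made with the Chromium Single Cell 3′ V3.1 kit per the labels' protocols. CASAVA 1.8, Cell Ranger 3.1.0, Seurat 3.1.4 and GRCm38 are named per the submitters' processing notes, without roles, and the matrices carry software version 3.1.0, per the file headers. How reads were aligned, annotated and, where intronic or multi-mapping, counted is not given in the sources used here.

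From the deposited counts, barcodes with at least 200 genes and at most 20% mitochondrial UMIs were kept (7903, 8566 and 5779 deposited in C, T1 and T3, each with at least 500 UMIs). No doublet caller was run, and 344, 322 and 155 barcodes with UMIs of both lineages were left out of both. UMIs were summed per group and given as CPM of that group, with Python 3.11.15, numpy 2.4.6, scipy 1.17.1 and pandas 2.3.3. Ratios of 2 counts have exact conditional 95% intervals and shares exact Clopper-Pearson ones. PCR duplicates are removed by UMIs, and intervals and the floor of 3 counts cover counting error only. With 1 library per group no test between groups was possible, so a rule of size was used, with its calls over all genes as background.

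Named were every member with at least 20 UMIs, with values in each library from 100 UMIs, members past the rule, genes of the lists, and the 5 genes most like the histone sum among those with at least 200 UMIs. H3f3b is named from its list with values chosen after they were seen. The B-lineage rule used 1 further gene, also required to be at 0 in CD3-positive barcodes, and 2 marker lists each lost 1 gene after the data were seen; these genes are not reported here. The members and lists were chosen with earlier results of these data known. The interval and rule were tested on simulated Poisson counts, the model that the interval assumes. That run could not show how they behave where a few barcodes carry most UMIs of a group. Stem-loops were read from GENCODE M21 transcripts and promoters from RefSeq.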

Additional observations from a re-analysis of the deposited data

Results flagged for a closer look

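Several pairs of groups moved in opposite directions under the same contrast, and with 1 library per group none of these differences was tested. In C, the log2 ratio of histone transcripts in positive over negative barcodes was 1.34 in the B lineage and -0.18 in the CD3-positive lineage. Within CD3-positive barcodes it was 0.33 in T1 (0.14 without the barcode with most histone UMIs in each group) and -0.18 in C. For barcodes with more S-phase than G2/M UMIs over the other positive ones, the B-lineage log2 ratio was 0.20 in T1 and -1.16 in C, and 2.44 in T3 and -1.16 in C. Without the positive barcode with most histone UMIs these were -0.00973 in T1, 0.90 in T3 and -1.24 in C, so the T1 direction rested on 1 barcode. In T1 the same ratio was 0.20 in the B lineage and -0.47 in the CD3-positive lineage, and -0.00973 and -0.72 without that barcode of each lineage. The S-phase list stood above the G2/M list in negative barcodes as well, so this split does not set S-phase cells against G2/M cells. Among positive barcodes above 4000 UMIs, T1 over C gave -0.83 in the B lineage and 0.29 in the CD3-positive lineage, and -0.97 and 0.15 (-0.0207 to 0.31) without the barcode with most histone UMIs in each group.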

How the results depend on the processing

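No paired analysis was possible because each group is 1 library, and no replicate could be left out. Under 14 settings, 74 of 150 summed ratios kept their direction and size, 73 moved and 3 reversed. Of 192 member counts, 129 stayed within 1.5 times and 63 moved. All 24 shares that were thinned to 500 UMIs or not thinned moved against those thinned to 1000 UMIs. Members past the rule remained past it in 1470 of 1845 combinations and changed sign in 37. Leaving out the barcode with most histone UMIs, in each group, among those with 2 or more gate UMIs, or among positive barcodes for the S-phase split, was chosen after seeing the data. The cause was not tested for any change below.

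For positive over negative barcodes, the B-lineage log2 ratio of 1.34 in C was 1.41 at 1500 to 4000 UMIs, 1.40 above 4000, 1.55 with all deposited barcodes, 1.95 with a gate of 2, 1.28 with lineage by 1 UMI, 1.20 with median-of-ratios scaling, 1.55 without Hist1h1c, 1.21 without mitochondrial and ribosomal protein UMIs, and 1.01 without the top 5% of barcodes by UMIs. In T1 the value of 1.03 was 1.21 above 4000 UMIs, 1.81 with a gate of 2, 0.94 with lineage by 1 UMI, 0.85 with median-of-ratios scaling, 1.14 without Hist1h1c, 0.95 without mitochondrial and ribosomal protein UMIs, 0.94 without haemoglobin-bearing barcodes, 0.86 without the 1 top histone barcode and 0.59 without the top 5%. In T3 the value of 1.04 was 1.85 above 4000 UMIs, 2.13 with a gate of 2, 0.75 with lineage by 1 UMI, 0.77 with median-of-ratios scaling, 0.0805 without haemoglobin-bearing barcodes, -0.15 without the 1 top barcode and 0.13 without the top 5%. The CD3-positive value of -0.18 in C was -0.0505 without the top 5%. That of 0.33 in T1 was -0.94 at 1500 to 4000 UMIs, 1.10 with a gate of 2, 0.53 with lineage by 1 UMI, 0.23 with median-of-ratios scaling, 0.22 without mitochondrial and ribosomal protein UMIs, 0.14 without the 1 top barcode and -0.19 without the top 5%. That of -0.14 in T3 was 0.0678 above 4000 UMIs and 0.28 without haemoglobin-bearing barcodes.

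For T1 over C, the B-lineage value of -0.77 was -0.49 at 1500 to 4000 UMIs, -0.84 above 4000, -0.84 with all deposited barcodes, -0.65 with median-of-ratios scaling, -0.68 without mitochondrial and ribosomal protein UMIs and -0.67 without the top 5%. The CD3-positive value of -0.20 was -0.0823 at 1500 to 4000 UMIs, -0.13 with median-of-ratios scaling and -0.28 without the top 5%. For T3 over C, the B-lineage value of -0.26 was -0.78 above 4000 UMIs, -0.33 with all deposited barcodes, -0.0397 with lineage by 1 UMI, -0.42 with median-of-ratios scaling, -0.38 without haemoglobin-bearing barcodes and -0.0780 without the top 5%. The CD3-positive value of -0.32 was -0.12 at 1500 to 4000 UMIs, -0.49 above 4000, -0.26 with lineage by 1 UMI, -0.19 with median-of-ratios scaling, -0.16 without mitochondrial and ribosomal protein UMIs and -0.26 without the top 5%.

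The count of members higher in positive B-lineage barcodes, 31 in C, was 12 at 1500 to 4000 UMIs. In T1 it was 18, and 3 at 1500 to 4000 UMIs, 11 with a minimum of 50 UMIs and 7 without the top 5%. In T3 it was 6, and 2 at 1500 to 4000 UMIs, 13 with a gate of 2, 12 with a minimum of 1 UMI, 1 without haemoglobin-bearing barcodes, 0 without the 1 top barcode and 1 without the top 5%. In CD3-positive barcodes of C it was 1, and 0 at 1500 to 4000 UMIs, 4 with a gate of 2, 2 with lineage by 1 UMI, 2 with a minimum of 1 UMI, 0 with a minimum of 50 and 2 without the top 5%. In T1 it was 5, and 0 at 1500 to 4000 UMIs, 9 with a minimum of 1 UMI, 3 with a minimum of 50 and 2 without the top 5%. In T3 it was 1, and 2 with a minimum of 1 UMI or without haemoglobin-bearing barcodes, and 0 at 1500 to 4000 UMIs, with a gate of 2, with median-of-ratios scaling, without mitochondrial and ribosomal protein UMIs, without the 1 top barcode and without the top 5%.

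The count lower in T1 than in C, 20 in the B lineage, was 32 at 1.5-fold, 6 at 1500 to 4000 UMIs and 13 without the top 5%. In CD3-positive barcodes it was 5, and 8 at 1.5-fold, 3 above 4000 UMIs, and 2 at 1500 to 4000 UMIs, with all deposited barcodes, with lineage by 1 UMI and with a minimum of 50 UMIs. The count lower in T3 than in C, 10 in the B lineage, was 3 at 1500 to 4000 UMIs, 16 above 4000, 17 with all deposited barcodes, 4 without haemoglobin-bearing barcodes and 2 without the top 5%. In CD3-positive barcodes it was 7, and 1 at 1500 to 4000 UMIs, 4 with lineage by 1 UMI, 3 with a minimum of 50 UMIs and 4 without haemoglobin-bearing barcodes. Depth limits T3 most: 3 counts of its UMIs allow up to 0.210 CPM, against 0.0902 CPM in C and 0.0872 CPM in T1.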
